A study of Mus musculus with 45 samples.

Results

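GFP+ve cells sorted from the ileum of adult mice were compared with GFP+ve cells sorted from the duodenum of the same mice, across all genes. The comparison uses 4 of the 45 libraries of the series, chosen by the intestinal region, age and mouse line in their labels, and 15 of the 45 libraries hold sorted cells. The remaining 30 libraries come from organoids and were not used. The 4 libraries came from 2 Lgr5-DTReGFP heterozygous mice of 2 months of age, for which the labels name no treatment. Mouse 71 gave duodenum 1 and ileum 1, and mouse 77 gave duodenum 2 and ileum 2, so each region has 2 libraries and each mouse has 1 library of each region. In this line a diphtheria toxin receptor fused to eGFP is inserted into the Lgr5 locus and disrupts that allele, so both regions of both mice carry a single working copy of Lgr5. The eGFP fusion is driven by the Lgr5 promoter, and cells were gated on GFP alone, with doublets excluded, after crypts had been released with EDTA and dissociated. Depth ranged from 4111160 to 5606648 reads on genes per library, at which 1 read is worth 0.178 to 0.243 CPM, the unit of all levels here (the reads of a gene scaled to the reads on all genes of its library). The question was which genes differ between GFP+ve cells of the distal and the proximal small intestine of the adult.

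Lgr5 is a receptor for R-spondins that marks the dividing stem cells at the base of intestinal crypts. These cells renew themselves and give rise to absorptive enterocytes and to secretory cells, among them Paneth, goblet, enteroendocrine and tuft cells. The duodenum is known for uptake of iron and for much of the uptake of fat, and the ileum for recovery of bile acids and of vitamin B12 and for a denser microbiota.

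The libraries were first checked against markers of the sort and of the regions. Lgr5 was at 346 and 308 CPM in the duodenum and 339 and 356 CPM in the ileum, and the 4 values overlapped between regions. Ascl2, a transcription factor of crypt base stem cells, was at 32.3 and 26.5 CPM in the duodenum and 28.8 and 26.8 CPM in the ileum, and Olfm4, another gene of these cells, at 4716 and 3592 CPM in the duodenum and 3548 and 2612 CPM in the ileum. Neither was called different (limma adjusted p = 0.845 and 0.105). The epithelial adhesion gene Epcam was at 947 and 936 CPM in the duodenum and 961 and 844 CPM in the ileum. Of genes that mark the ileum, Fabp6 and Slc10a2 were higher in both ileum libraries, Cubn was not called, and Fgf15 was at 0.75 and 0 CPM in the duodenum and 0.75 and 0.7 CPM in the ileum, too low to be tested. Of genes that mark the duodenum, Gata4, Onecut2, Lct and Gip were lower in both ileum libraries, while Cybrd1 and Slc40a1, which serve iron uptake, were not called. The keratin genes Krt8 and Krt18 of the simple epithelium were at 1584 and 2119.9 CPM in the duodenum and 1100.0 and 867 CPM in the ileum for Krt8 and at 1689.8 and 2362 CPM in the duodenum and 695 and 699 CPM in the ileum for Krt18, so both ileum libraries lay below both duodenum libraries for each.

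More genes were called lower in the ileum than higher. Of 18608 genes at 1 CPM or more in at least 2 of the 4 libraries, 2065 differed between ileum and duodenum (11.1%), of which 738 were higher in the ileum (3.97%) and 1327 lower (7.13%). A gene was called when the limma fit on log2(CPM + 1), with the mouse as a block, gave an adjusted p below 0.1 and a change of over 1.5-fold. The median log2 difference, ileum minus duodenum, was 0.03 over all tested genes, 1.15 over the genes called higher and -1.25 over those called lower, on a scale that compresses the change of genes near 0 CPM. A change of at least 4-fold on this scale was found for 105 of the higher and 276 of the lower genes. All 2065 called genes moved in the same direction in both mice, which a call with the mouse as a block nearly requires. Of all tested genes 65.1% did so, and 2036 of the called genes had ileum and duodenum values that did not overlap. Over all tested genes both ileum libraries lay above both duodenum libraries for 23.6% and below them for 22.1%. Across genes, the differences of the 2 mice had a correlation of 0.643, where genes are not independent replicates.

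With the mouse left out of the model the count of calls was 1280, with 417 higher and 863 lower. Fits without 1 library called 492 genes without duodenum 1, 612 without ileum 1, 68 without duodenum 2 and 491 without ileum 2, with 108, 297, 33 and 135 higher and 384, 315, 35 and 356 lower. Each of these refits leaves 1 region with 1 library, which is assumed to vary as the pair of the other region does, and has no mouse term. Below, counts without 1 library, and medians of lists where they turned sign or moved by over 1.5 times, are given in that order, the counts followed in brackets by the count without the mouse in the model where it differed by over 1.5 times. Counts of each list stand against the 3.97% of all tested genes called higher and the 7.13% called lower. When all 31935 genes with a nonzero library were tested, limma called 283 genes. No higher call was left there in the lists of stem cell, Wnt, secretory fate, alpha-defensin, goblet, enteroendocrine hormone and regulator, P450, glutathione transferase, arginine, cell cycle, B cell and myeloid genes, and no lower call in those of bile acid, mineral, Paneth, hormone, glutathione transferase, UDP-glucuronosyltransferase, claudin, mitochondrial, immediate early, T cell, endothelial and gastric genes. RNA was measured in bulk, so fewer cells of a type and less RNA per cell cannot be told apart.

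**Figure D1:**
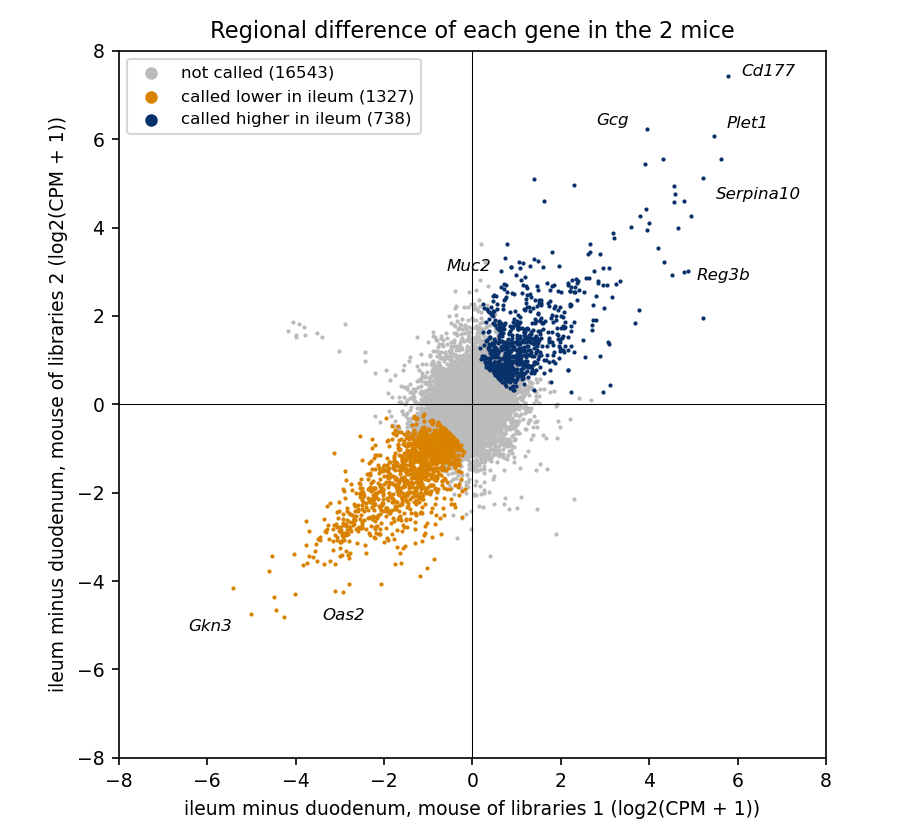
Difference between ileum and duodenum of each tested gene in the mouse of libraries 1 (horizontal axis) and in the mouse of libraries 2 (vertical axis), in log2(CPM + 1), 1 point per gene. The 738 genes called higher and the 1327 called lower have the same sign in both mice, and the other tested genes are drawn in grey.

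The largest rises and falls were of genes of many kinds. Cd177, which encodes a surface glycoprotein best known from neutrophils (ENSMUSG00000052212, chr7:24743983-24760311 in GRCm38), was at 2 and 0.7 CPM in the duodenum and 165 and 293 CPM in the ileum. Both ileum libraries were far above both duodenum libraries, by 6.61 ± 0.34 log2 units (SE, limma adjusted p = 1.28e-05, higher in 2 of 2 mice). Plet1, a surface protein first described in placenta, was at 52.1 and 126 CPM in the ileum and 0.2 and 0.9 CPM in the duodenum, a rise of 5.76, and its reads may include some of the overlapping antisense gene Plet1os, since it is not known whether counting used strand. Plet1os was at 0 in both duodenum libraries and 13.9 and 42.2 CPM in the ileum (at least 41.6-fold higher against a floor of 3 reads per library, and at least 20.6-fold without ileum 2, bounds that cover counting error only). For genes at 0 in a region the fitted log2 difference depends on the pseudocount and is no bound. Serpina10, an inhibitor of coagulation proteases, was at 103 and 80.4 CPM in the ileum and 1.8 and 1.35 CPM in the duodenum. Slc5a8, a sodium-coupled carrier of short-chain fatty acids and lactate, was at 36.8 and 66.7 CPM in the ileum and 0.9 and 0.45 CPM in the duodenum. In each of these genes the lower of the ileum libraries was many times above the higher of the duodenum libraries. Ceacam10, a secreted member of the carcinoembryonic antigen family, was at 68.9 and 161 CPM in the ileum and 1.25 and 7.45 CPM in the duodenum, with duodenum 2 above duodenum 1, and lies 16894 bases from Cd177 on chromosome 7. Bex1, a small adaptor protein encoded on the X chromosome, was at 29.0 and 19 CPM in the ileum and 0.2 and 0.25 CPM in the duodenum and overlaps the antisense gene Tceal7, which was called in the same direction. Cd177, Plet1, Serpina10, Slc5a8 and Bex1 were called in each of the 4 fits without 1 library. Without duodenum 2 the call was lost by Plet1os (4.66). Without ileum 2 the call was lost by Ceacam10 (4.002).

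In the other direction, Aadac, an esterase of the endoplasmic reticulum (ENSMUSG00000027761, chr3:60025717-60040160), was at 81.9 and 75.7 CPM in the duodenum and 2.7 and 2.75 CPM in the ileum, a difference of -4.42 ± 0.20 (limma adjusted p = 9.16e-06, lower in 2 of 2 mice). Fras1, an extracellular protein of basement membranes, was at 32.7 and 34.4 CPM in the duodenum and 0.75 and 0.25 CPM in the ileum and overlaps the antisense gene Gm42604, also called lower. Mme, the membrane peptidase neprilysin, was at 108 and 114 CPM in the duodenum and 7.1 and 8.5 CPM in the ileum. The duodenum libraries of each of these genes lay close together and far above both ileum libraries. Plekhs1, a protein with a pleckstrin homology domain, was at 43.4 and 72.8 CPM in the duodenum and 1.75 and 2.75 CPM in the ileum. Wwtr1, which encodes the Hippo pathway coactivator TAZ, was at 22.2 and 15.3 CPM in the duodenum and 0 and 0.5 CPM in the ileum. For both, the groups did not overlap, and all 5 genes were called in each of the 4 fits without 1 library.

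Transcription factors known for positional identity of the gut differed in both directions. Gata4, which sets jejunal and duodenal identity of the epithelium (ENSMUSG00000021944, chr14:63198922-63271692), was at 75.7 and 79.7 CPM in the duodenum and 4.9 and 6.45 CPM in the ileum. Both ileum libraries were below both duodenum libraries by a wide gap, with a difference of -3.57 ± 0.18 (limma adjusted p = 1.28e-05). Osr2, a zinc finger factor, was at 35.8 and 35.8 CPM in the ileum and 6.8 and 6.75 CPM in the duodenum (2.24 ± 0.20). Both ileum values of Osr2 were above both duodenum values. Pdx1, a homeobox factor of the proximal duodenum and pancreas, was at 5.75 and 8.1 CPM in the duodenum and 0.25 and 0 CPM in the ileum, and its reads may include some of the antisense gene Plut. Onecut2, a factor of the duodenum, was at 334 and 320.1 CPM in the duodenum and 182 and 134 CPM in the ileum (-1.06, limma adjusted p = 0.00158). Thus Onecut2 differed less between the regions than Gata4 and stayed at 134 CPM or more in every library. Of the 28 listed factors 26 were tested, 5 were called higher (among them Osr2, Nr1h4, Foxa1 and Foxa3) and 5 lower (Gata4, Pdx1, Meis2, Onecut2 and Tbx3), with a median of -0.13 against 0.03 over all genes, and -0.13, -0.08, -0.07 and -0.01 without 1 library. Sox2, a factor of the stomach and oesophagus, was at 0 in all 4 libraries. Cdx2, the intestinal homeobox factor, was at 83.2 and 76.8 CPM in the duodenum and 95.2 and 79.7 CPM in the ileum and was not called, nor were Gata5, Gata6, Hnf4a and Cdx1. Each of the 4 fits without 1 library called Gata4 and Osr2. Without duodenum 1 the call was lost by Onecut2 (-1.03). Lost without duodenum 2 were the calls of Pdx1 (-2.59) and Onecut2 (-1.09). Onecut2 (-0.84) lost its call without ileum 2. Without 1 library the list had 2, 3, 2 and 3 higher and 3, 4, 1 and 3 lower calls.

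Hox genes, whose order along the chromosome follows the body axis, were higher in the ileum within the Hoxb cluster on chromosome 11. Hoxb9 was at 0 and 0.25 CPM in the duodenum and 22.9 and 32.8 CPM in the ileum (4.67 ± 0.28, limma adjusted p = 3.51e-05). Hoxb8 was at 0 and 0.25 CPM in the duodenum and 11.0 and 19.3 CPM in the ileum, Hoxb7 at 0.2 and 0 CPM in the duodenum and 7.1 and 7.1 CPM in the ileum, Hoxb6 at 0.4 and 0.9 CPM in the duodenum and 21.5 and 31.9 CPM in the ileum and Hoxb5 at 0.2 and 0.25 CPM in the duodenum and 6.6 and 12.6 CPM in the ileum. For these 5 genes the duodenum libraries held at most 0.90 CPM, a few reads each, and every ileum library was at 6.6 CPM or more. The neighbouring Hoxb4 was at 4.15 and 2.95 CPM in the duodenum and 5.4 and 4.35 CPM in the ileum, Hoxb3 at 2 and 5.2 CPM in the duodenum and 9.75 and 6.65 CPM in the ileum and Hoxb2 at 2.9 and 2.95 CPM in the duodenum and 1.25 and 1.15 CPM in the ileum. These 3 genes were not called, although the regions did not overlap, with higher ileum values for Hoxb4 and Hoxb3 and lower ones for Hoxb2. Hoxb5 and Hoxb6 overlap the antisense gene Hoxb5os, which was also higher and may share reads with them. Of 39 Hox genes listed, 12 were tested, 5 were called higher and 0 lower (median 0.86, and 0.56, 0.69, 1.22 and 1.04 without 1 library), while 16 were at 0 in all 4 libraries. In the fits without 1 library 5, 5, 3 and 5 Hox genes were called higher. The call of Hoxb9, Hoxb8 and Hoxb6 held in all 4 fits without 1 library. With duodenum 2 left out, Hoxb7 (2.75) and Hoxb5 (3.08) were not called.

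**Figure D2:**
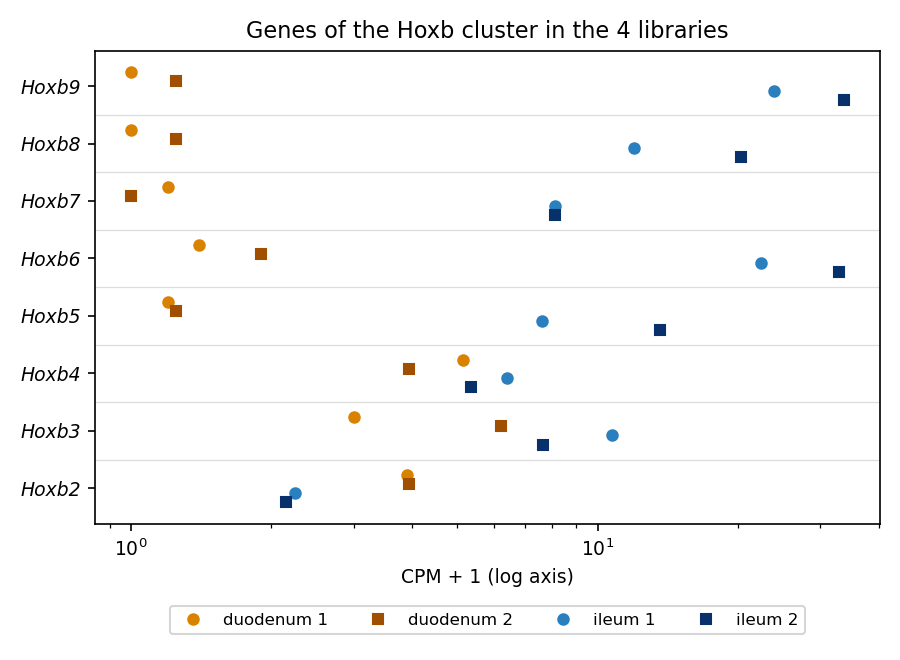
Values of Hoxb2 to Hoxb9 in each of the 4 libraries, in order of their number, as CPM + 1 on a log axis, 1 point per library. Hoxb5 to Hoxb9 are at or below 0.90 CPM in the duodenum and at 6.6 CPM or more in the ileum, while Hoxb2 to Hoxb4 were not called.

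Genes for the handling of bile acids and vitamin B12 (cobalamin) differed in part. Fabp6, the cytosolic bile acid binding protein of ileal enterocytes (ENSMUSG00000020405, chr11:43596049-43601540), was at 0.4 and 0.25 CPM in the duodenum and 32.2 and 37.4 CPM in the ileum. Both ileum libraries were above both duodenum libraries, which held 1 or 2 reads each by their CPM, with a difference of 4.75 ± 0.27 (limma adjusted p = 2.73e-05). Slc10a2, the apical sodium-dependent carrier that takes bile acids back up, was at 9.5 and 6.9 CPM in the ileum and 1.25 and 0.25 CPM in the duodenum (2.44, limma adjusted p = 0.00188). Nr1h4, the nuclear receptor for bile acids also known as FXR, was at 37.8 and 26.1 CPM in the ileum and 12.9 and 12.4 CPM in the duodenum (1.25). Each of the 3 genes had separate values in the regions. Tcn2, the carrier of vitamin B12 in blood, was lower in the ileum (35.7 and 40.0 CPM in the duodenum and 24.6 and 23.6 CPM in the ileum). Cubn, a part of the ileal receptor for vitamin B12 with intrinsic factor, was at 2.35 and 6.1 CPM in the duodenum and 8.05 and 7.6 CPM in the ileum and was not called, and neither were its partner Amn and the basolateral bile acid transporter genes Slc51a and Slc51b. Of 12 listed genes 9 were tested, 3 were higher and 1 was lower, with a median of 0.77, and 0.25, 0.82, 1.23 and 0.85 without 1 library. Fabp6 was called in each of the 4 fits without 1 library. Lost without duodenum 1 were the calls of Nr1h4 (1.28) and Tcn2 (-0.71). Without ileum 1 the calls were lost of Slc10a2 (2.24), Nr1h4 (0.99) and Tcn2 (-0.66). Slc10a2 (2.02), Nr1h4 (1.23) and Tcn2 (-0.55) lost their calls without duodenum 2. Tcn2 (-0.60) was not called without ileum 2. Tcn2 was not called without the mouse in the model. Tcn2 was not called by DESeq2 or in a fit of all 15 sorted libraries either. Calls in the list without 1 library numbered 2, 1, 1 and 3 higher and 0, 0, 0 and 0 (0 without the mouse) lower.

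**Figure D3:**
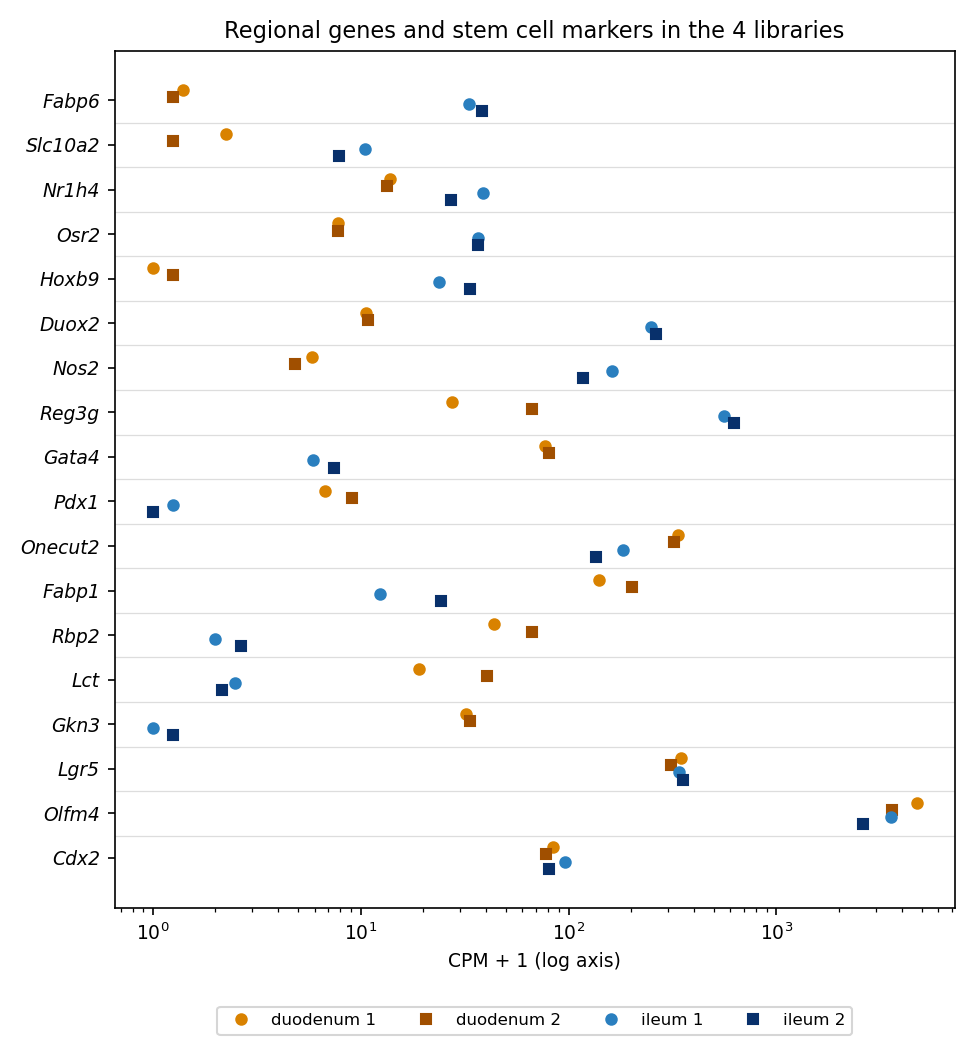
Values of 18 genes that differ or are known markers of the regions, in each of the 4 libraries, as CPM + 1 on a log axis, 1 point per library. Genes such as Fabp6 and Hoxb9 lie near 0 CPM in both duodenum libraries, and genes such as Gata4 and Gkn3 lie lower in both ileum libraries.

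Genes of fat uptake were mostly lower in the ileum. Of 20 genes for lipid absorption and lipoproteins, all tested, 14 were lower and 0 higher, with a median of -1.20, and the summed level of the list was 1600.0 and 1731 CPM in duodenum 1 and 2 and 661 and 686 CPM in ileum 1 and 2. Fabp1, a cytosolic fatty acid binding protein (ENSMUSG00000054422, chr6:71199827-71205023), was at 139 and 201 CPM in the duodenum and 11.5 and 23.4 CPM in the ileum. The higher ileum library was below the lower duodenum library, and the difference was -3.27 ± 0.15 (limma adjusted p = 9.78e-06). Apoa4, an apolipoprotein of chylomicrons, was at 29.5 and 53.7 CPM in the duodenum and 1.95 and 3.45 CPM in the ileum and overlaps antisense genes that were lower too. Mttp, which loads lipid onto apolipoprotein B, was at 164 and 169 CPM in the duodenum and 34.6 and 41 CPM in the ileum (-2.11) and overlaps the antisense gene Gm43691, which was lower too. Fabp2, the second fatty acid binding protein of enterocytes, was at 96.7 and 102 CPM in the duodenum and 52.3 and 39.6 CPM in the ileum (-1.11), so that it differed less than Fabp1. The cholesterol importer Npc1l1, the exporters Abca1 and Abcg5 and the lipoprotein receptor Scarb1 were among the 6 members not called. Without 1 library 6, 8, 1 and 7 members were called lower. Each of the 4 fits without 1 library called Mttp. Fabp2 (-1.14) was not called without duodenum 1. Without duodenum 2 the calls were lost of Fabp1 (-3.003), Apoa4 (-3.07) and Fabp2 (-1.07). Without ileum 2 the call was lost by Fabp2 (-0.91).

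Retinoid genes that were called were lower as well. Rbp2, which carries retinol inside enterocytes (ENSMUSG00000032454, chr9:98486115-98509781), was at 42.7 and 65.4 CPM in the duodenum and 1 and 1.65 CPM in the ileum, the groups being far apart (-4.55 ± 0.23, limma adjusted p = 1.28e-05). Adh1, an alcohol dehydrogenase that acts on retinol and ethanol, was at 859 and 1133 CPM in the duodenum and 119 and 185 CPM in the ileum (-2.73) and overlaps an antisense gene that was lower as well. The oxidoreductases Rdh7 and Aldh1a1 were also lower, as were Lrat, which makes retinyl esters, and Dhrs3. Of 21 listed genes 16 were tested, 6 were lower and 0 higher (median -0.53), and Cyp26a1, Cyp26b1 and Stra6 were at 0 in every library. The list had 4, 5, 2 and 4 lower calls without 1 library. The call of Rbp2 held in all 4 fits without 1 library. Adh1 (-2.53) was not called without duodenum 2.

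Hydrolases and peptidases of the brush border moved in both directions. Of 18 listed genes 17 were tested, 11 were lower and 3 higher, with a median of -1.22. Lct, which encodes lactase (ENSMUSG00000026354, chr1:128284756-128328318), was at 18.1 and 39.6 CPM in the duodenum and 1.5 and 1.15 CPM in the ileum. Both ileum libraries were at 1.5 CPM or below, and the difference was -3.58 ± 0.34 (limma adjusted p = 4.37e-04). Sis, sucrase-isomaltase, was at 89.1 and 117 CPM in the duodenum and 29.5 and 31.4 CPM in the ileum (-1.71), and the alkaline phosphatase genes Alpi and Akp3 and the trehalase gene Treh were also lower. In contrast, Mgam, maltase-glucoamylase, was at 2384 and 1473 CPM in the ileum and 716 and 537 CPM in the duodenum (1.59, limma adjusted p = 1.62e-04). Naaladl1, a brush border peptidase, was at 27.8 and 32.6 CPM in the ileum and 2.35 and 2.95 CPM in the duodenum (3.09), and Mep1b, the beta subunit of meprin, was higher too, while Mep1a, which encodes the alpha subunit, was lower. Calls without 1 library were 1, 1, 1 and 2 higher and 6, 3, 0 and 5 lower. Naaladl1 was called in each of the 4 fits without 1 library. Without duodenum 1 the call was lost by Mgam (1.80). Mgam (1.25) lost its call without ileum 1. With duodenum 2 left out, Lct (-3.04), Sis (-1.52) and Mgam (1.39) were not called.

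Genes of mineral, sugar and amino acid uptake were called in both directions. Of 12 genes for iron, calcium, zinc and folate, 11 were tested, with 1 higher and 1 lower (median -0.19, and -0.06, -0.06, 0.03 and -0.26 without 1 library), and the calcium channel gene Trpv6 was at 0 in all 4 libraries. Slc39a4, a zinc importer, was at 65.5 and 57.7 CPM in the ileum and 28.2 and 24.5 CPM in the duodenum (1.19), and Heph, the ferroxidase of iron export, was at 182 and 211 CPM in the duodenum and 90.3 and 79.2 CPM in the ileum (-1.20), in which reads of the overlapping antisense gene Hsf3 may be included. The regions did not overlap for either. Cybrd1, the apical iron reductase, was at 9.65 and 8.8 CPM in the duodenum and 7.3 and 23.4 CPM in the ileum, Slc11a2, the iron importer, at 32.7 and 36.0 CPM in the duodenum and 40.2 and 51.3 CPM in the ileum, and Slc40a1, the iron exporter, at 3.6 and 9.45 CPM in the duodenum and 3.9 and 6 CPM in the ileum. For Cybrd1 and Slc40a1 the regions overlapped, and none of the 3 was called. On a list of 20 transporters, mostly of sugars, amino acids and peptides, all tested, 2 were higher (Slc34a2 and the amino acid carrier gene Slc7a5) and 5 lower, against 3.97% and 7.13% of all genes (median -0.23, and -0.41, -0.15, -0.16 and -0.35 without 1 library). Of these calls Slc34a2 and Slc28a1 carry neither sugars nor amino acids nor peptides. Slc34a2, a phosphate carrier, was at 12.7 and 10.1 CPM in the ileum and 0.75 and 0.7 CPM in the duodenum, and Slc6a20a, a carrier of imino acids, was lower (-1.90) and overlaps several other genes. The nucleoside carrier gene Slc28a1 and the glucose transporter gene Slc2a2 were both at 1.8 and 3.15 CPM in the duodenum and at 0 in both ileum libraries. For each this is at least 3.39-fold lower against 3 reads per library, and at least 2.47-fold without duodenum 2. Slc5a1, the sodium-glucose cotransporter, was at 103 and 102 CPM in the duodenum and 129.9 and 95.95 CPM in the ileum and was not called. The mineral list had 1, 0, 0 and 1 higher and 1, 1, 0 and 1 lower calls without 1 library, and the transporters 1, 1, 0 and 1 (1 without the mouse) higher and 3, 2, 0 and 2 lower. With ileum 1 left out, Slc39a4 (1.11), Slc28a1 (-1.77) and Slc2a2 (-1.77) were not called. Slc39a4 (1.10), Heph (-1.10), Slc34a2 (2.81), Slc6a20a (-1.89), Slc28a1 (-1.49) and Slc2a2 (-1.49) lost their calls without duodenum 2. Without ileum 2 the calls were lost of Slc28a1 (-1.77) and Slc2a2 (-1.77).

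Stretches before the starts of 4 regional genes are shown because these genes were called with large differences, with the letters of GATA factors, of which Gata4 was called lower, and of CDX factors, of which Cdx2 was not called. Capitals mark AGATAA or TGATAA, letters bound by GATA factors, in Lct, Rbp2 and Gkn3, and TTTATG or TTTATT, letters bound by CDX factors, in Fabp6, each searched on both strands, so that a match may read as the reverse complement. GATA letters alone were marked in Lct, Rbp2 and Gkn3, and CDX letters alone in Fabp6, so the marks do not compare the genes. The Lct window also holds CATAAA, the reverse complement of TTTATG, which is left in lower case. The windows run over the 200 bases before the start in RefSeq GRCm38.p6 and are read along the gene. They lie at chr11:43601563-43601762 (minus strand) for Fabp6, chr1:128328319-128328518 (minus strand) for Lct, chr9:98490337-98490536 (plus strand) for Rbp2 and chr6:87388936-87389135 (minus strand) for Gkn3. No exon of GENCODE M21 overlaps them, and the window of Rbp2 lies in an intron of its longest transcript there.
Fabp6: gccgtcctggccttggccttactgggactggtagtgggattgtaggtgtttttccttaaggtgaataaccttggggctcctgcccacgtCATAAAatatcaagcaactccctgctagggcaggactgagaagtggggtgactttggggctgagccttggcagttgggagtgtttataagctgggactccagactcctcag
Lct: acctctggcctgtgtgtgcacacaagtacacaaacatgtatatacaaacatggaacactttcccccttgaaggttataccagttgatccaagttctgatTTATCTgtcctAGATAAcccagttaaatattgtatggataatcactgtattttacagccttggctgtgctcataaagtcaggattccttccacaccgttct
Rbp2: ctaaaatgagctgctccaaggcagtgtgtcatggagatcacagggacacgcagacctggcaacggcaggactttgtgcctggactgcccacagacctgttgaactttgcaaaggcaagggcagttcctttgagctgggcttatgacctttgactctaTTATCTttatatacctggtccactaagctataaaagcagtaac
Gkn3: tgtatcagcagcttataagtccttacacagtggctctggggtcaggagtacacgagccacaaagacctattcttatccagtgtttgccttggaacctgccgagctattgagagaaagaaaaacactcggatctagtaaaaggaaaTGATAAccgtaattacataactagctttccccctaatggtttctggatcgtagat
Of all 32851 promoter windows of the table, taken from 250 bases before to 50 after the start, 18.6% hold the GATA letters and 27.6% the CDX letters. Of 10740 tested genes with a window, 13.3% had the GATA letters, as did 18.0% of those called higher and 17.7% of those called lower. The CDX letters were in 20.4% of the tested genes, 25.5% of those called higher and 23.0% of those called lower. The GATA letters were in 5 of 11 lipid genes called lower and 2 of 4 not called, and in 3 of 10 brush border genes called lower, 1 of 3 not called and 1 of 1 called higher. The CDX letters were in 3 of 3 bile acid genes called higher and 1 of 5 not called. A match describes letters only.

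Genes of host defence were more often higher than lower in the ileum. Duox2, an oxidase that releases hydrogen peroxide at the apical membrane (ENSMUSG00000068452, chr2:122279247-122298449), was at 9.65 and 9.9 CPM in the duodenum and 249 and 261 CPM in the ileum. The 2 libraries of each region lay close together, and the difference was 4.57 ± 0.14 (limma adjusted p = 8.25e-06, the lowest value, which several other genes share). Duoxa2, its maturation factor, lies 450 bases from Duox2 on the opposite strand of chromosome 2 and was at 37.5 and 29.1 CPM in the ileum and 1.1 and 1.6 CPM in the duodenum, with reads that may include some of the overlapping antisense gene Duoxa1. Nos2, the inducible nitric oxide synthase, was at 161 and 117 CPM in the ileum and 4.85 and 3.85 CPM in the duodenum (4.69). All 3 genes had both ileum libraries far above both duodenum libraries. Reg3b and Reg3g, which encode secreted lectins that bind bacteria and lie on chromosome 6, were at 301 and 330.1 CPM in the ileum and 10 and 40.5 CPM in the duodenum for Reg3b and at 556 and 624 CPM in the ileum and 26.4 and 66 CPM in the duodenum for Reg3g. Tlr4, Tlr5 and Tlr2, receptors for bacterial products, and Retnlb, a bactericidal protein of goblet cells, were higher as well. Reg1, a lectin of the same family as Reg3b, ran the other way at 30.5 and 24.3 CPM in the duodenum and 1.75 and 1.15 CPM in the ileum, as did Dmbt1, a scavenger receptor, and Fut2, a fucosyltransferase of the mucosal surface. Of 32 listed genes 24 were tested, 9 were higher and 3 lower (median 0.35, and 0.38, 0.58, 0.32 and 0.31 without 1 library), and Cxcl5, S100a8, S100a9 and Sprr1a were at 0 in every library. Without 1 library there were 6, 7, 6 and 5 higher and 1, 2, 1 and 2 lower calls. Each of the 4 fits without 1 library called Duox2, Duoxa2, Nos2, Reg3g and Reg1. Without ileum 1 the call was lost by Reg3b (3.95). Reg3b (3.82) was not called without ileum 2.

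Genes of antigen presentation by MHC class II were mostly higher in the ileum. H2-Aa, which encodes the alpha chain of the class II molecule (ENSMUSG00000036594, chr17:34282744-34287823), was at 80.1 and 37.3 CPM in the duodenum and 744 and 516 CPM in the ileum. Both ileum libraries were above both duodenum libraries, by 3.48 ± 0.15 (limma adjusted p = 8.49e-06). Cd74, the invariant chain, was at 1331 and 1016 CPM in the ileum and 266 and 160.3 CPM in the duodenum (2.49), and Ciita, the coactivator of class II genes, was at 111 and 67.1 CPM in the ileum and 15.2 and 11.5 CPM in the duodenum (2.62), with reads that may include some of the overlapping antisense gene Dexi. H2-Ab1 and H2-Eb1, further chains of the class II molecules, and H2-DMa, H2-DMb1 and H2-DMb2, which load peptides, were higher too. Of 15 listed genes 13 were tested, 9 were higher and 0 lower, with a median of 2.49. The summed level was 522 and 334 CPM in duodenum 1 and 2 and 2789 and 2063 CPM in ileum 1 and 2. The DNA-binding partners of Ciita, Rfx5, Rfxank and Rfxap, and the protease gene Ctss were not called. Of the myeloid and B cell markers given below, Cd14, Itgam and Igha were higher as well, and the other tested markers were not called. Igha was at only 1.75 and 1.85 CPM in the ileum. Ptprc, which encodes a leukocyte antigen and stands on the T cell list, was lower. It was at 56.9 and 71.4 CPM in the duodenum and 12.2 and 27.1 CPM in the ileum. The part of myeloid, B and other immune cells in the class II result was not tested. In the fits without 1 library 8, 6, 2 and 6 members were called higher. The call of H2-Aa held in all 4 fits without 1 library. Without duodenum 2 the calls were lost of Cd74 (2.12) and Ciita (2.43).

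Windows before class II genes are shown because these genes rose together. Capitals mark TGATTGG, the letters of the Y box, searched on both strands, in the 200 bases before the start. The windows are at chr17:34287824-34288023 (minus strand) for H2-Aa, chr17:34305667-34305866 (plus strand) for H2-Eb1 and chr17:34145049-34145248 (plus strand) for H2-DMb2 in RefSeq GRCm38.p6. In GENCODE M21 the window of H2-Eb1 overlaps an exon of the antisense gene Gm20513, and the last bases of that of H2-DMb2 lie in an exon of the gene itself.
H2-Aa: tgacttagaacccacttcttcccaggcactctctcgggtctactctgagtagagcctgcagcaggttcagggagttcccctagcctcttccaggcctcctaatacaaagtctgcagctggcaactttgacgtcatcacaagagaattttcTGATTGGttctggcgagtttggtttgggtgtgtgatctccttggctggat
H2-Eb1: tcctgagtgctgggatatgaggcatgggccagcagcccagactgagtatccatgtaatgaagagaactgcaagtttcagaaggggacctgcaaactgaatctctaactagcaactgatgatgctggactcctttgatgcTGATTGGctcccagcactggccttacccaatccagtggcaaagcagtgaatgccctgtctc
H2-DMb2: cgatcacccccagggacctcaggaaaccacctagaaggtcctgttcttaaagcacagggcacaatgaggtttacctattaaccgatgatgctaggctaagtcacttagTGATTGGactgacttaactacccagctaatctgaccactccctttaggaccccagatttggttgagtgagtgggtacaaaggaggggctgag
Of the class II genes called higher 5 of 6 with a window held the Y box letters, as did 1 of 3 not called, against 7.82% of all promoter windows, 11.7% of tested genes and 9.74% of the genes called higher.

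Genes induced by interferon split into groups of opposite direction. Of 45 listed genes 44 were tested, 15 were lower and 4 higher (median -0.68, and -1.33, -1.15, 0.07 and 0.09 without 1 library). The median was thus near 0 without duodenum 2 or ileum 2. Oas2, which senses double-stranded RNA, was at 151 and 404 CPM in the duodenum and 16.6 and 20.7 CPM in the ileum (-3.67 ± 0.23, limma adjusted p = 4.59e-05). Ifit1, which binds foreign RNA, was at 16.3 and 81.3 CPM in the duodenum and 4.15 and 5.75 CPM in the ileum (-2.68), and Isg15, a ubiquitin-like protein, was at 8.05 and 38.4 CPM in the duodenum and 2.95 and 1.65 CPM in the ileum (-2.55). In these 3 genes duodenum 2 was the highest library, several times above duodenum 1, and both ileum libraries were below duodenum 1. The 15 lower members, taken because they were called lower, summed to 957 and 2546 CPM in duodenum 1 and 2 and to 472 and 354 CPM in ileum 1 and 2. The whole list summed to 2371 and 4934.5 CPM in duodenum 1 and 2 and to 3399 and 2265 CPM in ileum 1 and 2. For the whole list the regions thus overlapped, and in mouse 71 the ileum was above the duodenum. In contrast, Iigp1, a GTPase induced by interferon gamma, was at 54.8 and 17.9 CPM in the ileum and 0.9 and 1.35 CPM in the duodenum (3.94), and Gbp2, a guanylate binding protein, Cxcl9, a chemokine, and Irf8, a transcription factor, were higher. Irf1 and the peptide transporter gene Tap1 were not called. The list had 1, 1, 0 and 4 higher and 14, 3, 1 and 1 (9 without the mouse) lower calls without 1 library. Oas2 was called in each of the 4 fits without 1 library. Without ileum 1 the calls were lost of Ifit1 (-2.48) and Isg15 (-2.83). Lost without duodenum 2 were the calls of Ifit1 (-1.55), Isg15 (-1.48) and Iigp1 (4.09). With ileum 2 left out, Ifit1 (-2.87) and Isg15 (-2.26) were not called.

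Windows before interferon genes that were lower in the ileum are shown because these genes fell together. Capitals mark GAAA followed by any 2 bases and GAAA again, a core of the interferon-stimulated response element, searched on both strands, and the matches in Isg15 overlap each other. The windows are at chr4:156200819-156201018 (minus strand) for Isg15 and chr12:26456453-26456652 (minus strand) for Rsad2 in RefSeq GRCm38.p6.
Isg15: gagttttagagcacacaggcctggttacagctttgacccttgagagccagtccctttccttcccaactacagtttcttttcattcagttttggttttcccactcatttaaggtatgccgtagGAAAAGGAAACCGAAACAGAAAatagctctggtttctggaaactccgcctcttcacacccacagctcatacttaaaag
Rsad2: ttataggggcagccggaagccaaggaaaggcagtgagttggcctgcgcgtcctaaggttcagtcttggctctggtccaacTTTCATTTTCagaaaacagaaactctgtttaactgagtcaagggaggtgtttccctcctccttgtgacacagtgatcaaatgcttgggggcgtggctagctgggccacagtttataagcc
The letters were in 8 of 10 interferon genes called lower, 9 of 17 not called and 1 of 3 called higher, against 3.44% of all promoter windows and 3.81% of tested genes.

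Genes of tuft cells, chemosensory cells that start type 2 responses, were mostly lower in the ileum. All 18 listed genes were tested and 16 were lower, with a median of -2.85, and 0 were higher. The list summed to 3901 and 6521 CPM in duodenum 1 and 2 and 501 and 894 CPM in ileum 1 and 2, with Trpm5 as its most abundant gene and no gene of the list at 0. Trpm5, the cation channel of taste signalling (ENSMUSG00000009246, chr7:143069153-143094642), was at 639 and 1213 CPM in the duodenum and 70.8 and 141 CPM in the ileum. Duodenum 2 was the highest library and ileum 1 the lowest, and the regions did not overlap (-3.12 ± 0.11, limma adjusted p = 8.25e-06). Reads of Trpm5 may include some of the overlapping antisense gene Tssc4. Alox5, which makes leukotrienes, was at 138 and 258 CPM in the duodenum and 8.8 and 19.7 CPM in the ileum (-3.74), and Dclk1, a kinase widely used as a marker of these cells, was at 656 and 1069 CPM in the duodenum and 85.2 and 176 CPM in the ileum (-2.76). The lineage factor Pou2f3 and the cytokine gene Il25 were lower as well, while Gnat3 and Sucnr1 were not called. Spib, a transcription factor on the list for M cells, was at 162 and 278 CPM in the duodenum and 16.3 and 32.6 CPM in the ileum (-3.15) and had the same order of libraries as Trpm5. Ptprc, which encodes the leukocyte antigen CD45 and stands on the T cell list, was at 56.9 and 71.4 CPM in the duodenum and 12.2 and 27.1 CPM in the ileum (-1.75), again with that order, and overlaps A130071D04Rik on the same strand, which was lower too. Krt18, given above, also had its highest value in duodenum 2. The part of tuft cells in the other results was not tested. Without 1 library 15, 14, 2 and 14 members of the tuft list were called lower. Ptprc (-1.91) lost its call without duodenum 1. With duodenum 2 left out, Trpm5 (-2.66), Alox5 (-3.29), Dclk1 (-2.41), Spib (-2.76) and Ptprc (-1.59) were not called. Ptprc was not called in the fit of all 15 sorted libraries.

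**Figure D4:**
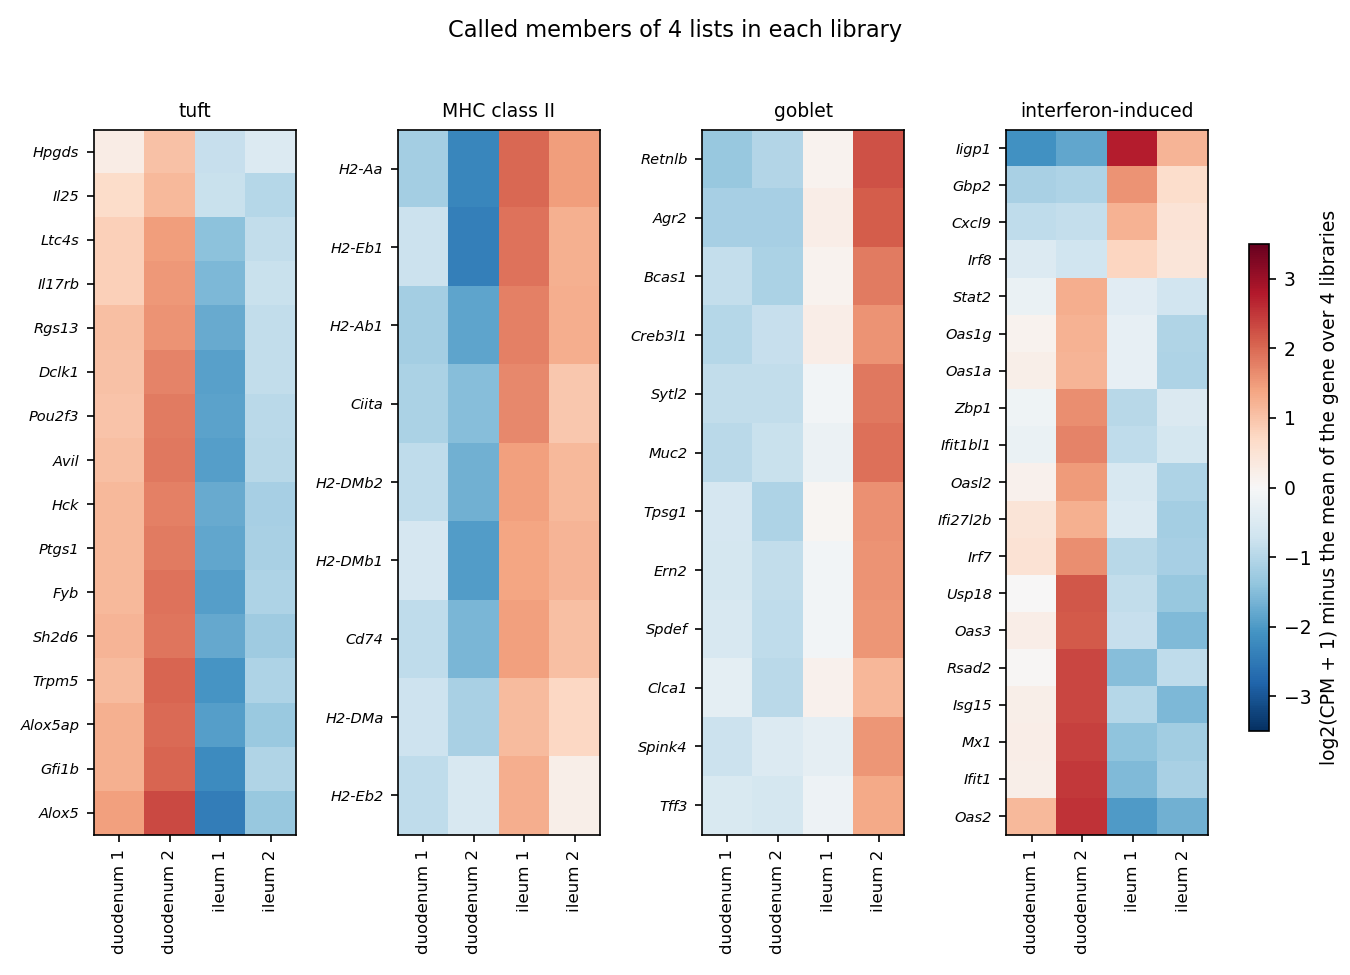
Called members of the tuft cell, MHC class II, goblet cell and interferon lists in the 4 libraries, as log2(CPM + 1) minus the mean of the gene over the libraries. Tuft genes are low in both ileum libraries, class II genes are high in both, goblet genes are highest in ileum 2, and the interferon genes that are lower in the ileum are highest in duodenum 2.

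Genes of goblet cells, which secrete mucus, were mostly higher in the ileum, and ileum 2 was the highest library. All 17 listed genes were tested, 12 were higher and 0 lower, with a median of 1.45, and 1.61, 2.32, 1.36 and 0.65 without 1 library. The list summed to 2945 and 3103 CPM in duodenum 1 and 2 and 3762 and 11455 CPM in ileum 1 and 2, with Muc2 as its most abundant gene and none of the list at 0. Muc2, the main mucin of the gut, was at 782 and 866 CPM in the duodenum and 1293 and 5718 CPM in the ileum (1.72 ± 0.37, limma adjusted p = 0.0234). Ileum 2 was far above the other 3 libraries, and ileum 1 was above both duodenum libraries. Agr2, which helps to fold mucins, was at 82.8 and 82.9 CPM in the duodenum and 219 and 814 CPM in the ileum (2.34) and had the same order. Retnlb, Bcas1, Creb3l1, Spdef, Clca1, Spink4 and Tff3 were among the other higher genes, and Fcgbp and Zg16 were not called. Bcas1 overlaps 2 antisense genes. The list had 0, 14, 0 and 2 (3 without the mouse) higher calls without 1 library. DESeq2 called 4 goblet genes higher, and 5 of 15 were called with a mean of at least 10 CPM asked for. Lost without duodenum 1 were the calls of Muc2 (1.65) and Agr2 (2.34). Muc2 (1.80) and Agr2 (2.34) lost their calls without duodenum 2. Muc2 (0.65) lost its call without ileum 2. Without the mouse in the model Muc2 was not called. Values that moved by over 1.5 times while still called were those of Muc2 without ileum 1 (2.80) and Agr2 without ileum 2 (1.39). The part of goblet cells in the other results was not tested.

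Regulators of secretory fate that were called were higher in the ileum. Of 18 genes of the Notch pathway and of secretory fate 17 were tested, 5 were higher and 0 lower (median 0.25, and 0.38, 0.20, 0.16 and 0.47 without 1 library). Atoh1, the factor that commits cells to a secretory fate, was at 8.05 and 8.1 CPM in the duodenum and at a mean of 40.9 CPM over ileum 1 and the higher ileum 2, which was at 63.2 CPM (1.96), with both ileum libraries above both duodenum libraries. Gfi1 and Spdef, which act after Atoh1, and the Notch ligand genes Dll4 and Jag1 were also higher, and Dll4 overlaps the antisense gene Gm14207, which was higher too. The receptor genes Notch1 and Notch2, their target Hes1 and the ligand gene Dll1 were not called. Calls without 1 library were 0, 3, 0 and 0 (2 without the mouse). DESeq2 called 1 gene of the list higher, and the fit of all 15 sorted libraries called 3. Without duodenum 1 the call was lost by Atoh1 (1.96). Without duodenum 2 the call was lost by Atoh1 (1.97). Atoh1 (1.10) was not called without ileum 2.

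Genes of Paneth cells, which secrete antimicrobial proteins at the crypt base, were called higher more often than lower. Of 16 genes other than alpha-defensins 15 were tested, 5 were higher and 1 lower, against 3.97% and 7.13% of all genes (median 0.94, and 0.99, 1.77, 0.79 and 0.04 without 1 library). The list summed to 14169 and 16195 CPM in duodenum 1 and 2 and 9648 and 27567 CPM in ileum 1 and 2, with Lyz1 as its most abundant gene and none at 0. Lyz1, a lysozyme, was at 8332 and 8517 CPM in the duodenum and 5456 and 13187 CPM in the ileum, with ileum 1 the lowest and ileum 2 the highest library, and was not called. The higher genes were Reg3b, Reg3g, Mptx1, Mmp7 and Pla2g2a, of which Reg3b and Reg3g also stand on the host defence list. Mmp7 was at 167 and 238 CPM in the duodenum and 211 and 1069 CPM in the ileum, with ileum 1 below duodenum 2. Mmp7 overlaps the antisense gene AV064505, also higher. The lower gene was Cd24a, a surface protein, at 1712 and 2292 CPM in the duodenum and 659 and 1411 CPM in the ileum (-1.04). Pla2g2a, a secreted phospholipase, was at 47.0 and 1379 CPM in the duodenum and 66.5 and 3631 CPM in the ileum (0.94, limma adjusted p = 0.0188), so the 2 libraries of mouse 77 were far above those of mouse 71 in either region. Of 39 alpha-defensin genes and pseudogenes 27 were tested, 6 were higher and 0 lower (median 0.15, and 0.30, 0.79, 0.17 and -0.31 without 1 library), and 9 were at 0 in every library. They summed to 14925 and 14959.5 CPM in duodenum 1 and 2 and 10484 and 23281 CPM in ileum 1 and 2, most of all from Defa24, and since members of this family are nearly identical in sequence, reads may be split among them and single members are uncertain. Defa17 was at 1325 and 1374 CPM in the duodenum and 1021 and 2180.1 CPM in the ileum and was not called. Without 1 library the Paneth list had 2, 7, 2 and 1 (3 without the mouse) higher and 0, 0, 0 and 1 (0 without the mouse) lower calls, and the alpha-defensins 0, 8, 0 and 0 (2 without the mouse) higher and 0, 0, 0 and 1 lower. Cd24a (-1.25) and Pla2g2a (-1.48) lost their calls without duodenum 1. Lost without ileum 1 were the calls of Cd24a (-0.49) and Pla2g2a (3.82). Lost without duodenum 2 were the calls of Cd24a (-0.83) and Pla2g2a (3.37). Without ileum 2 the call was lost by Pla2g2a (-1.93). The fit without the mouse did not call Cd24a and Pla2g2a. The value of Cd24a moved by over 1.5 times, while still called, without ileum 2 (-1.59). No alpha-defensin was called higher in the fit of all 15 sorted libraries or with a mean of at least 10 CPM asked for. Whether Paneth cells had a part in the other results was not tested.

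Some hormone genes of enteroendocrine cells differed by region. Gcg, which encodes glucagon-like peptides, was at 0 in both duodenum libraries and at 14.4 and 73.5 CPM in the ileum, at least 65.3-fold higher against 3 reads per library, and at least 21.4-fold without ileum 2. Pyy, peptide YY, was also at 0 in both duodenum libraries and at 1.75 and 3.7 CPM in the ileum, at least 4.05-fold higher, and at least 2.60-fold without ileum 2. Gip, a hormone of the proximal gut, was at 20.4 and 8.55 CPM in the duodenum and 3.9 and 0.25 CPM in the ileum (-2.53, limma adjusted p = 0.00166). Nts, neurotensin, was at 0 in 3 libraries and at 0.5 CPM in ileum 1, too low to be tested, and Vip was at 0 in all 4. Of 15 hormone genes 7 were tested, 2 were higher and 1 lower (median 0.28, and 0.36, 0.90, 0.05 and -0.25 without 1 library). Of 17 regulators and granule genes of these cells 10 were tested, 2 were higher (Etv1 and Pcsk1) and 0 lower (median 0.22, and 0.50, 0.57, -0.26 and 0.09 without 1 library). The hormones summed to 40.3 and 32.3 CPM in duodenum 1 and 2 and 33.4 and 115 CPM in ileum 1 and 2, and the regulators to 79.2 and 42.2 CPM in duodenum 1 and 2 and 47.8 and 102 CPM in ileum 1 and 2. The most abundant genes were Gcg and Chgb, and the part of these cells in the other results was not tested. Hormone calls without 1 library were 1, 2, 0 and 1 higher and 0, 1, 0 and 0 lower, and the regulators had 0, 0, 0 and 0 (1 without the mouse) higher. Without duodenum 1 the calls were lost of Pyy (1.85) and Gip (-1.95). With duodenum 2 left out, Gcg (5.08), Pyy (1.85) and Gip (-3.11) were not called. With ileum 2 left out, Pyy (1.46) and Gip (-1.54) were not called. With every gene of a nonzero library tested, limma called none of the hormone and regulator genes. DESeq2 did not call Gcg, Pyy or Pcsk1 and gave no adjusted p for Etv1, so that Gip alone was called by it, while the fit of all 15 sorted libraries did not call Gip, Etv1 or Pcsk1.

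Of 26 stem cell markers, all tested, 4 were higher (Tnfrsf19, Prom1, Cd44 and Lgr4), 1 was lower, against 3.97% and 7.13% of all genes, and the median was -0.04, and 0.12, 0.01, -0.04 and 0.04 without 1 library. The lower gene was Gkn3, a gastrokine also found in intestinal stem cells (ENSMUSG00000030048, chr6:87383256-87388935), at 31.3 and 32.6 CPM in the duodenum and 0 and 0.25 CPM in the ileum. It was close to 0 in both ileum libraries, with a difference of -4.88 ± 0.28 (limma adjusted p = 2.55e-05). Axin2, a target and inhibitor of Wnt signalling, was at 269 and 228 CPM in the duodenum and 355 and 265 CPM in the ileum and was not called. Of 39 Wnt ligands, receptors and antagonists 23 were tested, 1 was higher, a share near that of all genes, and 4 lower (median -0.22, and -0.09, -0.35, -0.30 and -0.07 without 1 library), and Dkk2, Ror1, Rspo1 and Rspo2 were at 0 in all 4 libraries. Sfrp5, a secreted Wnt antagonist, was at 44.1 and 29 CPM in the duodenum and 1.75 and 1.85 CPM in the ileum (-3.72 ± 0.26, limma adjusted p = 7.93e-05), with the regions far apart. Wnt3, the ligand made by Paneth cells, was at 6.1 and 5.2 CPM in the duodenum and 10.8 and 31.2 CPM in the ileum (1.55), with ileum 2 the highest library. Nkd1, an inhibitor of the pathway, the receptor gene Fzd4 and the ligand gene Wnt5a were lower, and the receptor genes Fzd5 and Fzd7 were not called. For Wnt5a the regions overlapped, at 1.45 and 6.55 CPM in the duodenum and 0.25 and 1.85 CPM in the ileum. Stem cell calls without 1 library were 0, 1, 0 and 0 (1 without the mouse) higher and 1, 1, 1 and 1 lower, and Wnt calls 0, 2, 0 and 0 (0 without the mouse) higher and 1, 1, 1 and 2 (2 without the mouse) lower. Each of the 4 fits without 1 library called Gkn3 and Sfrp5. Without duodenum 1 the call was lost by Wnt3 (1.65). Without duodenum 2 the call was lost by Wnt3 (1.45). Wnt3 (0.82) was not called without ileum 2. Wnt3 was not called without the mouse in the model. DESeq2 called none of the 4 higher stem cell markers. Of 30 cell cycle genes, all tested, 2 were higher (Rrm2 and Mcm4) and 0 lower, against 3.97% and 7.13% of all genes, with a median of 0.25, and 0.32, 0.000, 0.14 and 0.45 without 1 library, and limma called 0 of them in each fit without 1 library and 0 without the mouse. Neither Rrm2 nor Mcm4 was called by DESeq2.

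Genes that peroxisome proliferators induce were mostly lower in the ileum. Pdk4, a kinase that restrains the use of pyruvate (ENSMUSG00000019577, chr6:5483351-5496309), was at 29.5 and 12.6 CPM in the duodenum and 0.25 and 0 CPM in the ileum. Duodenum 1 was above duodenum 2, both ileum libraries were at 0.25 CPM or below, and the difference was -4.19 ± 0.32 (limma adjusted p = 1.37e-04). Cpt1a, which lets fatty acids into mitochondria, and the receptor gene Ppara were lower too. Of 17 listed genes 14 were tested, 11 were lower and 0 higher, with a median of -1.18, and -0.99, -1.35, -1.47 and -0.79 without 1 library. Without 1 library 3, 5, 2 and 5 (7 without the mouse) members were called lower. The call of Pdk4 held in all 4 fits without 1 library.

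Genes of cholesterol and fatty acid synthesis were higher where they were called. Of 29 genes, all tested, 10 were higher and 0 lower, with a median of 0.47, and 0.31, 0.56, 0.55 and 0.30 without 1 library. Scd2, a fatty acid desaturase, was at 339 and 569.8 CPM in the ileum and 83.7 and 141 CPM in the duodenum (2.01 ± 0.11, limma adjusted p = 2.04e-05), and its reads may include some of the microRNA gene Mir5114, which lies within it. Both ileum libraries were above both duodenum libraries. The regulators Srebf1 and Srebf2 were not called. There were 1, 2, 1 and 1 higher calls without 1 library. DESeq2 called 3 genes of the list higher, and 2 were called when every gene with a nonzero library was tested. Scd2 (1.63) lost its call without duodenum 1. Scd2 (2.38) lost its call without duodenum 2. Without ileum 2 the call was lost by Scd2 (1.63).

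Enzymes that modify drugs and other foreign compounds were lower in the ileum where they were called, with single exceptions. Of 75 cytochrome P450 genes of families 1 to 4, 28 were tested, 14 were lower and 1 higher (median -0.78). Cyp2e1 was at 4.85 and 7.65 CPM in the duodenum and 0 and 0.25 CPM in the ileum (-2.67) and Cyp3a11 at 7.15 and 10.4 CPM in the duodenum and 0.75 and 1.15 CPM in the ileum (-2.31), and the gene called higher was Cyp2u1, which DESeq2 did not call. Of 22 glutathione transferases 20 were tested, 5 were lower and 1 higher (median -0.16, and 0.002, -0.16, -0.16 and -0.18 without 1 library). Gsta1 was at 10.2 and 4.95 CPM in the duodenum and 0.75 and 0.25 CPM in the ileum, and the higher gene, Gsta3, was at 7.3 and 6.2 CPM in the ileum and 0.4 and 0 CPM in the duodenum. Of 17 carboxylesterases 12 were tested, 6 were lower and 0 higher (median -1.01), with Ces2g at 44.6 and 28.3 CPM in the duodenum and 2.95 and 2.3 CPM in the ileum (-3.34). Of 22 UDP-glucuronosyltransferases 16 were tested, 8 were lower and 0 higher (median -0.63). Of the 8, 6 are Ugt1a genes (Ugt1a1, Ugt1a2, Ugt1a5, Ugt1a8, Ugt1a9 and Ugt1a10, -0.61 to -0.83), which overlap at 1 locus and share their last exons, so that their reads are uncertain for any single one and they are not 6 separate results. Ugt2b5 and Ugt2a3 lie outside it, and Ugt2a3 was at 18.6 and 17.1 CPM in the duodenum and 4.65 and 4.15 CPM in the ileum (-1.80). Without 1 library the P450 genes had 5, 5, 0 and 5 lower calls and 0 higher. The glutathione transferases had 0, 4, 0 and 1 lower and 1, 1, 0 and 1 higher calls, and the carboxylesterases 3, 5, 1 and 4 lower and 0, 2, 0 and 0 higher. The UDP-glucuronosyltransferases had 0, 1, 0 and 1 (3 without the mouse) lower calls and 0 higher. Ces2g was called in each of the 4 fits without 1 library. Gsta1 (-2.01) and Ugt2a3 (-1.75) lost their calls without duodenum 1. Lost without duodenum 2 were the calls of Cyp2e1 (-2.39), Cyp3a11 (-2.07), Gsta1 (-2.92), Gsta3 (2.47) and Ugt2a3 (-1.86). Gsta1 (-2.22) lost its call without ileum 2.

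Of 14 genes for arginine, citrulline and the urea cycle, all tested, 5 were lower and 1 higher, with a median of -0.14, and -0.09, -0.26, -0.30 and -0.14 without 1 library. Oat, which makes glutamate semialdehyde from ornithine, was at 1125 and 888 CPM in the duodenum and 646 and 455 CPM in the ileum (-0.88 ± 0.12, limma adjusted p = 0.00239), with both ileum libraries below both duodenum libraries, and overlaps a gene on the same strand that was not called. Ass1, which joins citrulline and aspartate, was at 8.05 and 7.35 CPM in the ileum and 4.85 and 1.8 CPM in the duodenum (1.10). Cps1, which makes carbamoyl phosphate, was lower too, at 3853 and 2969 CPM in the duodenum and 2685 and 1647 CPM in the ileum. Without 1 library there were 0, 0, 0 and 0 (0 without the mouse) higher and 1, 1, 0 and 1 lower calls. Without duodenum 1 the calls were lost of Oat (-0.71), Ass1 (1.63) and Cps1 (-0.50). With ileum 1 left out, Oat (-1.13), Ass1 (1.04) and Cps1 (-1.04) were not called. With duodenum 2 left out, Oat (-1.05), Ass1 (0.57) and Cps1 (-0.87) were not called. With ileum 2 left out, Oat (-0.63), Ass1 (1.16) and Cps1 (-0.33) were not called. Without the mouse in the model Ass1 and Cps1 were not called. Ass1 was also not called by voom, edgeR or DESeq2, nor at an FDR of 0.05.

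Of 23 claudins, proteins of tight junctions, 10 were tested, 2 were higher and 2 lower (median 0.19, and 0.34, 0.12, 0.08 and 0.27 without 1 library), and 7 were at 0 in every library. Cldn2, which forms pores for cations, was at 459 and 405 CPM in the ileum and 226 and 216 CPM in the duodenum (0.96), and Cldn4 was also higher. Cldn3 was lower, and Cldn18, a claudin of the stomach, was at 0 in both ileum libraries and 1.1 and 2.95 CPM in the duodenum, at least 2.78-fold lower against 3 reads per library, and at least 1.51-fold without duodenum 2. The claudins had 0, 1, 0 and 1 higher and 1, 0, 0 and 0 (1 without the mouse) lower calls without 1 library. Cldn2 (0.99) lost its call without duodenum 1. Cldn2 (0.87) lost its call without ileum 1. Cldn2 (0.93) lost its call without duodenum 2. DESeq2 did not call Cldn3 and gave no adjusted p for Cldn18, and Cldn3 was not called with a mean of at least 10 CPM asked for.

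Several groups without a known regional role were looked at for the state of the cells and the libraries. Of 19 immediate early and stress genes 18 were tested, 8 were lower and 0 higher (median -0.52), among them Fosb, Cyr61, Nr4a1 and Hspa1b, and their calls without 1 library numbered 2, 1, 0 and 1 (2 without the mouse). The fit of all 15 sorted libraries called 1 gene of this list lower. Hspa1b was at 18.2 and 82.6 CPM in the duodenum and 15.35 and 13.3 CPM in the ileum, with duodenum 2 far the highest. Its difference was -0.23 in mouse 71 and -2.55 in mouse 77 (limma adjusted p = 0.0986). The part of the immediate early and stress genes in the other results was not tested. Of 37 mitochondrially encoded genes, all tested, 2 transfer RNA genes were lower, mt-Te and mt-Tw, a share below the 7.13% of all genes, and 0 were higher (median -0.09, and -0.05, 0.04, -0.12 and -0.34 without 1 library), with 0, 0, 0 and 2 (0 without the mouse) lower calls without 1 library, and neither was called with a mean of at least 10 CPM asked for. Of 84 cytosolic ribosomal protein genes 80 were tested and 0 were called by limma, voom, edgeR or DESeq2 (median 0.06, and 0.26, -0.13, -0.15 and 0.26 without 1 library), with 5 at an unadjusted limma p below 0.05. Of 4 gasdermin C genes, which form pores in membranes, 2 were tested and 0 called by any of these tools (median 0.67, and 0.73, 1.21, 0.61 and 0.12 without 1 library), with 1 at an unadjusted p below 0.05. Mitochondrially encoded genes took 5.34% to 5.71% of the CPM of a library and ribosomal RNA 4.77% to 5.63%.

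**Figure D5:**
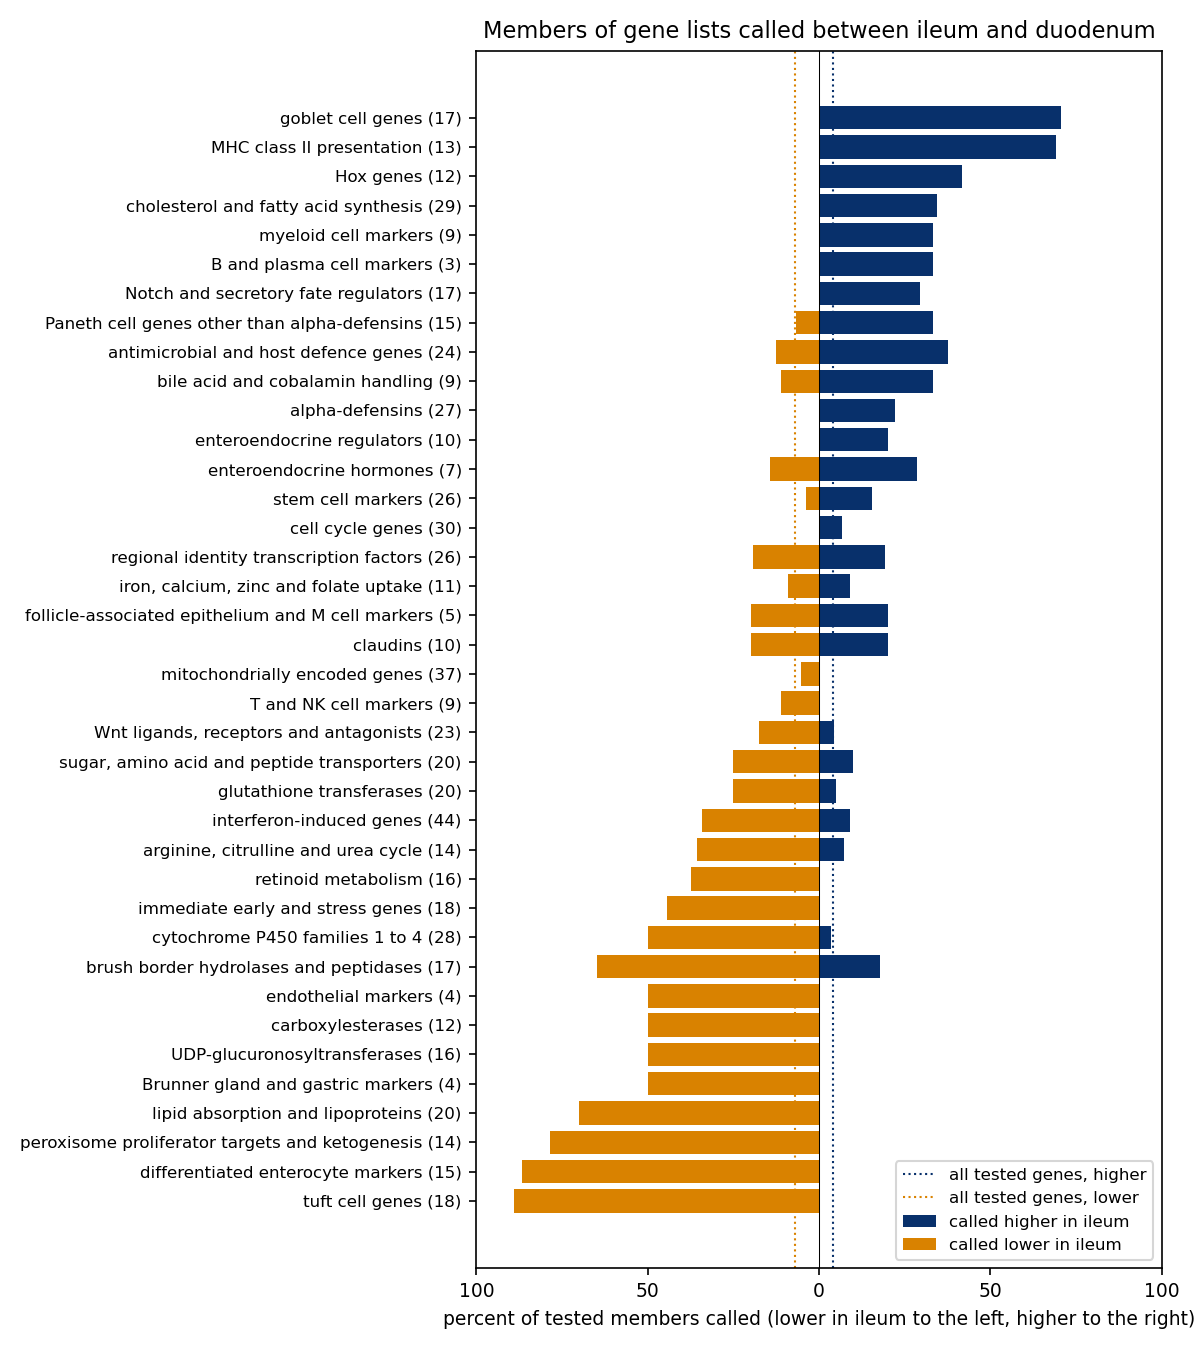
Percent of the tested members of each list that were called lower (left) and higher (right) in the ileum, with the number tested in brackets and dotted lines at the shares over all tested genes, 7.13% and 3.97%. Tuft cell genes reach furthest to the left, with 16 of 18 called lower, and goblet and MHC class II genes furthest to the right.

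Markers of cells outside the epithelium ranged from 0 CPM to the level of Lyz2. Of 18 T and NK cell markers 9 were tested and 1 was lower, Ptprc, and the list summed to 94.1, 124, 46.6 and 57.1 CPM in duodenum 1, duodenum 2, ileum 1 and ileum 2, with Ptprc as the most abundant and 0, 1, 0 and 1 lower calls without 1 library. Of 12 B and plasma cell markers 3 were tested and 1 was higher, Igha, with sums of 3.75, 3.45, 8 and 8.95 CPM, Cr2 the most abundant, and Mzb1 among those at 0, and Igha was not called in any of the 4 fits without 1 library and had no adjusted p in DESeq2. Of the myeloid markers 9 were tested and Cd14 and Itgam, which is listed under 2 identifiers that overlap, were higher, with Cd14 at 64.5 and 44.7 CPM in the ileum and 14.9 and 14.6 CPM in the duodenum. Without 1 library 1, 1, 0 and 1 identifiers of the 3 were called higher, and Itgam was called in none of these fits. Their list summed to 2229.7, 2041, 1566 and 3191 CPM, nearly all from Lyz2, whose product resembles that of Lyz1 and whose reads may be shared with it, and S100a8 was at 0. Of 13 mesenchymal markers 3 were tested and 0 called by limma, voom, edgeR or DESeq2, with 1 at an unadjusted limma p below 0.05, sums of 8.75, 11.1, 14.8 and 17.4 CPM, Tagln the most abundant and Pdgfra at 0. Col1a1 was too low to be tested, and Vim was not called. Of 8 endothelial markers 4 were tested, 2 were lower, Tek and Plvap, the sums were 13.1, 22.8, 7.15 and 7.9 CPM with Tek the most abundant, and Emcn was at 0. Their lower calls without 1 library were 1, 0, 0 and 0 (1 without the mouse). Of 8 neural and glial markers 1 was tested and was called by none of these tools, nor at an unadjusted p below 0.05, with sums of 4.35, 2.1, 2.75 and 3.25 CPM and with Gfap and Uchl1 among those at 0. The part of these cells in the results was not tested.

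Other epithelial cells near the duodenum were looked at in the same way. Of 12 pancreatic acinar markers 2 were tested and 0 called by the same tools, with 0 at an unadjusted limma p below 0.05, sums of 128, 124, 46.3 and 137 CPM, Clps the most abundant and 5 markers at 0 (Amy2a5, Cpa1, Cpb1, Prss2 and Try4). Without ileum 2, 1 of them was called lower. Of 9 markers of Brunner glands and stomach 4 were tested and 2 were lower, Gif and Pgc, with sums of 21.2, 33.8, 12.3 and 21.7 CPM, Muc6 the most abundant, and Gkn1, Gkn2 and Tff1 at 0, and 1, 0, 0 and 0 were called lower without 1 library. Of 9 markers of follicle-associated epithelium and M cells 5 were tested, with Tnfrsf11b higher and Spib lower, sums of 219, 342, 75.5 and 173 CPM, Spib the most abundant and Gp2 at 0. Without 1 library 1, 2, 0 and 1 were called higher and 1, 1, 0 and 1 lower. Of 15 markers of differentiated enterocytes, of which 13 stand on other lists too, all were tested, 13 were lower and 0 higher (median -1.71). They summed to 2299, 2835, 1132 and 1164 CPM, with Apob the most abundant and none at 0, and 8, 10, 1 and 9 were called lower without 1 library. The part of enterocytes and of these other cells in the results was not tested.

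Levels in other sorted libraries of the series are given as a description, without a test, since they differ in line, age or tissue. The 5 libraries of adult ileum from Lgr5-Cre mice come from tamoxifen-treated animals of 2 months, 2 heterozygous for Lgr5 and 3 with a conditional knockout of it, sorted for eGFP and a red reporter. In these, Fabp6 was at 108 CPM in the lowest, 129 CPM in the median and 292 CPM in the highest library, and in the 2 libraries of E18.5 Lgr5-DTReGFP heterozygous embryos, made from the whole small intestine and not from 1 region, it was at 0.95 and 0.70 CPM. Gata4 was at 3.0, 6.0 and 17.2 CPM in the Cre libraries and at 101 and 96.9 CPM at E18.5. Thus the Cre ileum was closer to the adult ileum than to the adult duodenum for both genes. Hoxb9 was at 26.4, 32.5 and 36.6 CPM in the Cre libraries, close to the ileum values above, and at 0.70 and 1.10 CPM at E18.5. Onecut2, at 2.25, 2.8 and 3.9 CPM in the Cre libraries and 321 and 305 CPM at E18.5, was lower in the Cre ileum than in either adult ileum library. Plet1 was at 1.8, 6.2 and 20.7 CPM in the Cre libraries, also below both adult ileum libraries. H2-Aa was at 335, 388 and 401 CPM in the Cre libraries and 0.70 and 1.10 CPM at E18.5, and Trpm5 was at 9.8, 28.3 and 36.2 CPM and at 0.50 and 1.55 CPM. Levels of Lct were 2.45, 2.95 and 4.95 CPM in the Cre libraries and 328 and 240.05 CPM at E18.5, above every adult library.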

How the data were processed

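Per the study's methods, total RNA of sorted cells was made into libraries with the Ovation SoLo kit and sequenced in pairs of 100 bases on a NovaSeq instrument. Reads were trimmed with Trimmomatic 0.36, aligned with STAR 2.5.3a to GRCm38.p4 and counted per gene with HTSeq 0.9.1 on the Ensembl 90 annotation. Whether counting used strand is not given in the sources used here. The values deposited by the authors are CPM per gene, rounded up to the next 0.05. Low values came out as whole numbers of reads in 100% of cases within that rounding step of 0.05, which gave the depth of each library.

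The table holds 52636 genes, of which 52489 identifiers were found in GENCODE M21 (GRCm38), used for coordinates and overlaps. Genes at 1 CPM or more in at least 2 of the 4 libraries were tested across the genome with limma 3.58.1 (R 4.3.3) on log2(CPM + 1), with region and mouse as terms, a trended prior and Benjamini-Hochberg adjustment. Calls needed an FDR of 0.1 and a change of 1.5-fold, and 1 residual degree of freedom comes from the data of a gene. The pairing comes from the mouse numbers in the labels. Deviations of same-mouse libraries from their region means had a correlation of 0.257 across genes. As alternatives, edgeR 4.0.16, its TMM factors, voom and DESeq2 1.42.0 were run on the CPM or the recovered reads, and other filters, limits and pseudocounts were tried. Code was tested on simulated data. Python 3.11.15 with numpy 2.4.6, pandas 2.3.3 and matplotlib 3.10.9 made the tables and plots.

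Genes were named by a rule: the 12 largest rises and 12 largest falls among called genes with a mean of at least 10 CPM in the higher region and the same direction in both mice, up to 4 called members of each list by fold change or else the 2 most abundant, and a fixed set of regional, stem cell and marker genes. Other genes named, Mgam among them, and the Y box and interferon motifs were chosen after their values were seen. Members and lists were chosen with earlier results of these data known. Promoter windows are from RefSeq GRCm38.p6. Some genes that the rule names are not reported here.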

Additional observations from a re-analysis of the deposited data

How the results depend on the processing

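The count of genes called was 2065, with 738 higher and 1327 lower in the ileum, and it stayed within 1.5 times of these under TMM scaling, a pseudocount of 0.1, voom, edgeR on recovered reads, an FDR of 0.05 and no limit on the fold change. Without the replicate block, that is without the pairing by mouse, 1280 genes were called (417 higher and 863 lower), all of them among the 2065. Testing every gene with a nonzero library called 283 (67 and 216) of 31935 genes, a mean of at least 10 CPM called 1174 (399 and 775) of 10613 genes, and DESeq2 called 823 (236 and 587). Fitting all 15 sorted libraries together called 1406 (488 and 918) of 22963 genes. Fits without 1 library called 68 to 612 genes, 33 to 297 higher and 35 to 384 lower. The cause of these differences was not tested. The filters change how many genes are tested, and the refits have fewer libraries and no mouse term.

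Of 258 called genes that stand on a list or were named, 254 were still called under TMM scaling, 253 with edgeR, 197 in the fit of 15 libraries, 183 without the block, 157 with DESeq2, 81 when every gene with a nonzero library was tested and 40 to 135 without 1 library. The sign of Pla2g2a reversed without duodenum 1 (-1.48) and without ileum 2 (-1.93), in a range of -1.93 to 3.82 over the refits. These refits leave out the mouse term as well as a library, and the cause was not tested. Within each mouse the ileum library was above the duodenum library for Pla2g2a. Pairs of libraries from 2 mice limit the comparison, as does depth: 3 reads correspond to 0.535 to 0.730 CPM, so changes below this level were not detectable. Medians of the lists were the same with genes at 0 in a region set to their bound. Only called genes at 0 in both libraries of a region were reset, so a median could hardly move and no conclusion is drawn.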

Other observations

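Some predicted genes ran in opposite directions in the 2 mice. Gm10800 was at 2742 and 1935 CPM in the duodenum and 512 and 3807 CPM in the ileum, Gm21738 at 698 and 398 CPM in the duodenum and 65.2 and 1148 CPM in the ileum and Gm26870 at 409 and 198 CPM in the duodenum and 24.9 and 592 CPM in the ileum. In each of the 3 genes ileum 1 was the lowest and ileum 2 the highest of the 4 libraries, and none was called. They were chosen after their values were seen.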
